A study of Homo sapiens with 4 samples.

Results

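MDM2, MDM4, GADD45A, GADD45B, SESN1, TP53INP1, ZMAT3, FAS and BTG2 are 9 genes of the p53 and stress response, and they were taken by symbol from a table of 41507 genes. SU-DHL-5 and Toledo, established human cell lines of diffuse large B-cell lymphoma (DLBCL), were each treated with DMSO, the vehicle, or with JQ1 at 1 µM. JQ1 is a small molecule that displaces the BET family of bromodomain proteins from acetylated chromatin, and no other agent or genetic change was given for any group. The sample labels state 6 h of treatment. Each of the 4 conditions was 1 labelled sample with 2 RNA libraries, so n = 1 per condition. Differences within a line have no replicate sample behind them and carry no p-value. The library values are given instead, in RPKM (reads scaled to the length of the gene and to the reads its library mapped). What separates the 2 libraries of a sample is not given in the sources used here. Their spread was therefore not taken as the spread between cultures.

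p53 is a transcription factor that is stabilised by DNA damage and other stress. MDM2 is a ubiquitin ligase that marks p53 for degradation and is itself a p53 target, which closes a feedback loop, and its relative MDM4 binds and restrains p53. Most of the remaining genes are best known as p53 targets that slow the cell cycle, restrain growth signalling, favour autophagy or open a death pathway. Several of the remaining genes also answer to stress signals that do not pass through p53.

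The libraries held between 14617583 and 17679831 mapped reads, as recovered from the values, and between 94.7% and 95.3% of these reads lay on genes. All 9 genes passed the filter of a mean of 0.5 RPKM over the 8 libraries, as did 10258 genes in all. The 5 B cell markers used (MS4A1, CD79A, CD79B, PAX5 and CD22) were present in every library, and their summed level was lower with JQ1, at 620 to 627 RPKM against 859 to 969 for the SU-DHL-5 libraries and 596 to 613 against 844 to 904 for the Toledo libraries. The summed level of 10 markers of other cells was also lower with JQ1, at 0.385 to 0.587 RPKM against 2.81 to 2.95 for SU-DHL-5, and 0.386 to 0.624 against 2.43 to 3.20 for Toledo. With DMSO, 7 of these 10 markers were under 0.2 RPKM in both SU-DHL-5 libraries, and 9 in both Toledo libraries. These sums therefore rest on few genes of low level. CD2 and KRT18 were listed at 0 in every library. The part of these marker differences in the results below was not tested. In RNA from a culture, fewer cells that express a gene and less of its RNA per cell cannot be told apart.

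The windows before the transcription starts of 4 of the genes are shown first. MDM2 and SESN1 each start at an upstream and an internal site. The JQ1 ratios of the 2 sites differed in direction for MDM2 in SU-DHL-5 and in size for SESN1 in Toledo. BTG2 and GADD45B were higher with JQ1 in both lines. Each window is the 250 bases before a RefSeq start on GRCh38.p14, printed from 5′ to 3′ on the strand of the gene, with every match to a searched motif in capitals. The motifs were the p53 half-site, the TATA box (TATAAA), the E-box (CACGTG), the CCAAT box, the GC box (GGGCGG) and the AP-1 site (TGANTCA). Both strands were searched, so that CCGCCC, the other strand of the GC box, is in capitals too. A looser p53 rule, chosen after the sequences were seen, asked for 20 adjacent bases made of a pair of half-sites, each with its central C and G and at most 1 other base off.
MDM2, upstream start: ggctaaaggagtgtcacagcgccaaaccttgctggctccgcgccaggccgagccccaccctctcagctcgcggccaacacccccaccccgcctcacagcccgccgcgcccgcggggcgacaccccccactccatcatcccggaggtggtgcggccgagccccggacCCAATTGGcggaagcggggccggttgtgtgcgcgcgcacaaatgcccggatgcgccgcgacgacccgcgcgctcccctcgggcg
MDM2, internal start: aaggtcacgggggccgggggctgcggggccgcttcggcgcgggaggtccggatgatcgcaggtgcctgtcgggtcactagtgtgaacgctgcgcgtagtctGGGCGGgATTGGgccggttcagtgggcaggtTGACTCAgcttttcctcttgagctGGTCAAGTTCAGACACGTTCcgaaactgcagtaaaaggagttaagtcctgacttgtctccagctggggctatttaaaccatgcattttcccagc
SESN1, upstream start: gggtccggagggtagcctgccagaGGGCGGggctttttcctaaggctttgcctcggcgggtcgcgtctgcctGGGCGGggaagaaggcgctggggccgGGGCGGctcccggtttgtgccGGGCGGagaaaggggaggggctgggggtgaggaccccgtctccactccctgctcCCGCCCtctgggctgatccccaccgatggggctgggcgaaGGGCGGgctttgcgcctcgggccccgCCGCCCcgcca
SESN1, internal start: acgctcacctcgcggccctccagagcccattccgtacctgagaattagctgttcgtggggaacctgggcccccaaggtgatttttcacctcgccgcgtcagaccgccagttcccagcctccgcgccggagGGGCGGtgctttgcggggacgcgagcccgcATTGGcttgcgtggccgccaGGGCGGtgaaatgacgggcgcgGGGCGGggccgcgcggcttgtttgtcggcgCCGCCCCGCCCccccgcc
BTG2: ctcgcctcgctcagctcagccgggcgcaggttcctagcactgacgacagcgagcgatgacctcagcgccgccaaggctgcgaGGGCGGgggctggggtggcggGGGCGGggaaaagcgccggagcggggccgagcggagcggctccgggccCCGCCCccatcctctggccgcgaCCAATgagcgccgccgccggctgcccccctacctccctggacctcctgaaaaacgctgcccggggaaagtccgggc
GADD45B: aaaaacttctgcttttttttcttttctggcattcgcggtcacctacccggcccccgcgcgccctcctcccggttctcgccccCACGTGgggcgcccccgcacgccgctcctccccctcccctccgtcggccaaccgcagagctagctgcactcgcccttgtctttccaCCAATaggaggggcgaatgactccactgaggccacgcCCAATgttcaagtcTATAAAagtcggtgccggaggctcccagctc

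The MDM2 windows were chr12:68807922-68808171 and chr12:68808767-68809016 on the plus strand, and the second lies within intron 1 of the transcripts that begin at the upstream start. Its 20 capital bases that begin 94 bases before the internal start were the only match of a member to the pair rule, which held in 49 of the 35116 RefSeq windows (0.140%). Because that rule was chosen after the sequences were seen, the share does not measure how unusual the match is. A second RefSeq window of MDM2, which begins 7 bases further on, holds the same bases. No exact p53 half-site lay in the windows printed, against 5.57% of all windows. The 2 exact matches among the members were in a FAS window that ends at a start at position 88991431 of chromosome 10 and in a further SESN1 window that ends at a start at position 109008988 of chromosome 6.

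The SESN1 windows were chr6:109094847-109095096 and chr6:109009553-109009802 on the minus strand, and the internal one lies in an intron of the longer transcript. The upstream transcript whose levels are given below is listed with a start at position 109094505, and the RefSeq start is 109094846. The bases just before its listed start are therefore not printed. The printed SESN1 windows held 7 and 5 matches to the GC box, a pair of which overlap in the internal window, while 42.6% of all windows hold at least 1. BTG2 (chr1:203305269-203305518, plus strand) held 3 such matches and a CCAAT match that begins 76 bases before the start. GADD45B (chr19:2475877-2476126, plus strand) was the only member with a TATAAA match, 31 bases before the start, and the only one with CACGTG, 168 bases before it. The TATA box lay in 10.7% of all windows, the E-box in 6.34%, the CCAAT box in 32.0% and the AP-1 site in 6.57%. A match is a run of letters and not a site of binding. RefSeq entries were found for 7 of the 9 genes, and GADD45A and TP53INP1 had none in the table used.

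JQ1 was accompanied by higher levels of 5 of the 9 genes in both lines, and these were GADD45A, GADD45B, SESN1, TP53INP1 and BTG2. Each was past 1.5-fold in each line, and TP53INP1 and BTG2 were past 2-fold in both. FAS was lower in both lines. MDM2, MDM4 and ZMAT3 were within 1.5-fold of DMSO in SU-DHL-5, and MDM4 was lower in Toledo. FAS and the 5 genes that were higher had JQ1 libraries that did not overlap with the DMSO libraries of their line, as 22.0% of genes tested did on the higher side in both lines and 28.9% on the lower side. Those 5 genes compare with 3.73% of the 10258 genes tested that were past 1.5-fold higher in both lines, and FAS with 9.14% past 1.5-fold lower in both. For 2-fold in both lines the shares were 0.741% higher, against 2 of the 9 genes, and 3.52% lower, against none of them. The 9 genes had a median log2 ratio of 0.63 for SU-DHL-5 and 0.60 for Toledo, against 0.00 and −0.07 over all genes tested. The 9 genes were chosen with earlier results of these data known. Their contrast with all genes tested, here and below, is therefore description and not independent evidence.

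The JQ1 effect was also fitted over both lines at once, with limma on the 4 samples and the line as a block, an analysis added after the values were seen. It takes the lines as the replicates and leaves 1 residual degree of freedom per gene, to which limma adds the spread shared over all genes. Its p-values do not account for the choice of the genes with earlier results known. The 5 genes had Benjamini-Hochberg adjusted limma p-values over all genes of 0.00107 for GADD45A (log2 0.84, SE 0.13), 0.00107 for GADD45B (0.89, SE 0.14), 0.0141 for SESN1 (0.62, SE 0.15), 0.000271 for TP53INP1 (1.30, SE 0.16) and 7.67e-05 for BTG2 (1.08, SE 0.11). FAS was lower, with an adjusted limma p of 0.038 (log2 −0.94, SE 0.29), a call that ended with a pseudocount of 1 RPKM and with the second libraries alone. SESN1 was not called with the second libraries alone. MDM2, MDM4 and ZMAT3 had adjusted limma p-values of 0.58, 0.257 and 0.75. Of all genes tested, 9.63% were higher and 16.0% lower in this fit.

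**Figure D1:**
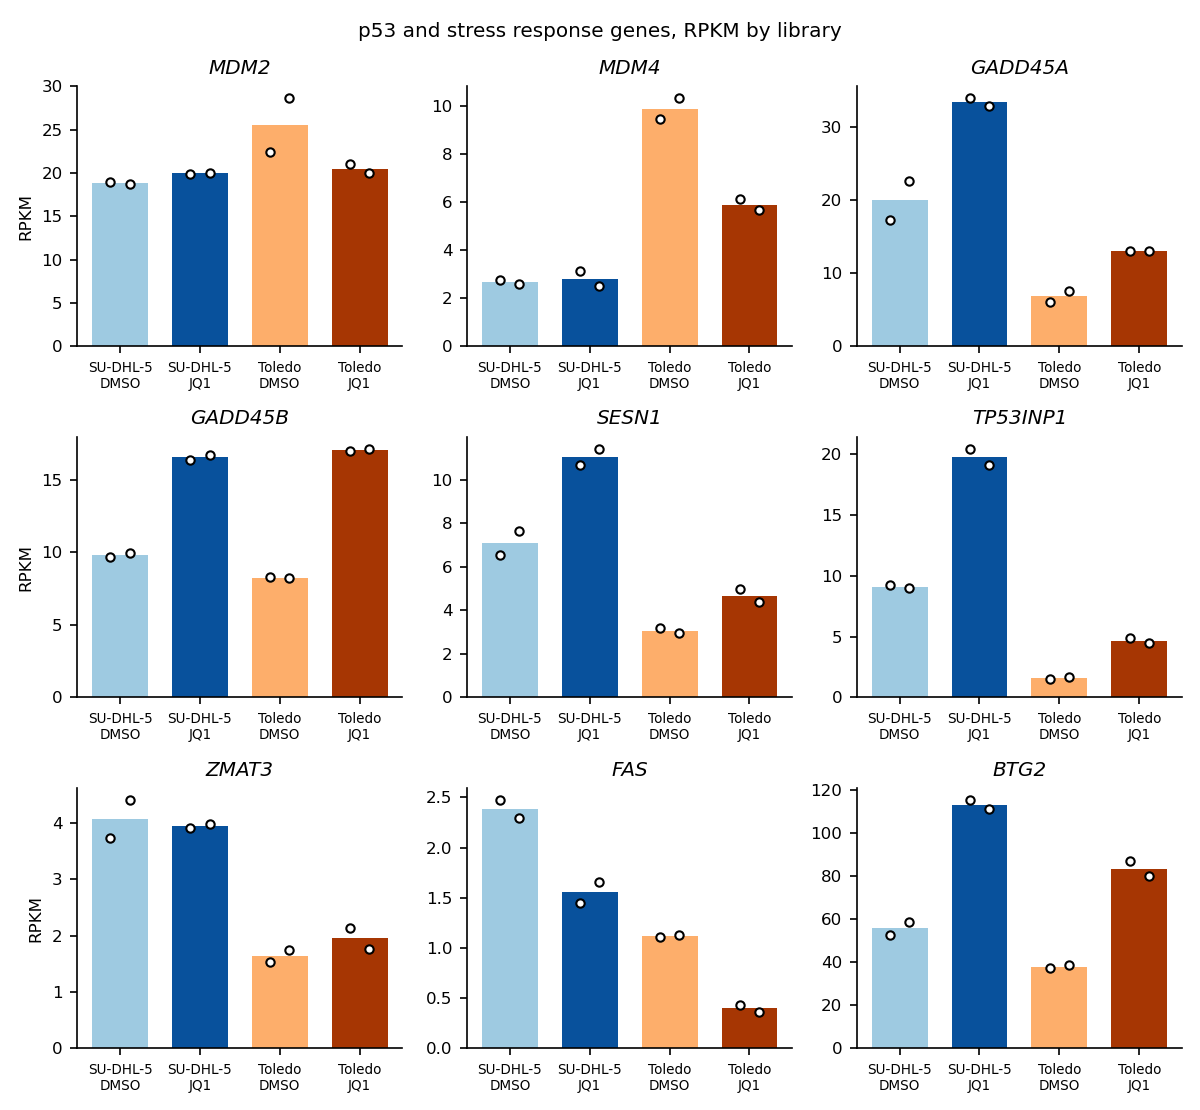
RPKM of the 9 genes. Each bar is the mean of the 2 libraries of a sample and each open point is 1 library, with the vertical axis starting at 0 in every panel and a scale of its own per gene. GADD45A, GADD45B, SESN1, TP53INP1 and BTG2 were higher with JQ1 in both lines, FAS was lower in both, and MDM4 stood at 9.45 and 10.3 RPKM in the DMSO libraries of Toledo alone.

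Among the genes that act on p53 itself, MDM2 differed little with JQ1 in SU-DHL-5. Its RPKM (chr12:68808172-68845544 on GRCh38) was 18.9 and 18.7 in the DMSO libraries of SU-DHL-5 and 19.9 and 20.0 in the JQ1 libraries. In Toledo it was 22.4 and 28.6 with DMSO and 21.0 and 20.0 with JQ1. In SU-DHL-5 the JQ1 libraries thus lay just above the DMSO libraries, and in Toledo they lay below them. On the log2 scale the ratio, log2((JQ1 + 0.1)/(DMSO + 0.1)) in RPKM, was 0.09 in SU-DHL-5 (95% interval from 0.03 to 0.14 for counting error only), and it was −0.05 once ratios were centred on genes of like length. For Toledo the ratio was −0.31 (−0.36 to −0.25), and it ranged from −0.09 with the first libraries alone to −0.52 with the second libraries alone. The DMSO libraries of Toledo differed from each other with gene length, since the second exceeded the first by a median log2 of 0.26 in the longest 25% of genes and by −0.08 in the shortest 25%. MDM2, whose recovered length was 7705 bases, differed between them by 0.35.

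The transcripts of MDM2 separated by their start. Those from the upstream start summed to 14.4 and 15.0 RPKM with DMSO and 11.6 and 13.1 with JQ1 in SU-DHL-5. Those from the internal start, which follows the pair of p53 half-sites printed above, summed to 4.39 and 3.96 RPKM with DMSO and 7.48 and 6.25 with JQ1 in the same line. The upstream group was therefore lower and the internal group higher with JQ1, by log2 ratios of −0.25 and 0.70, with no overlap of libraries in either. In Toledo the internal group was 7.77 and 6.27 RPKM with DMSO and 5.36 and 4.08 with JQ1, a log2 ratio of −0.56, so its direction was the opposite of that in SU-DHL-5. The upstream group in Toledo was 16.3 and 22.5 RPKM with DMSO and 16.1 and 16.2 with JQ1. A shorter transcript with a start at position 68808955, inside the internal window printed above, was counted in neither group. It was 5.53 and 3.92 RPKM with DMSO and 7.31 and 7.01 with JQ1 in SU-DHL-5 (log2 0.59). In Toledo it was 0.382 and 5.92 with DMSO and 3.96 and 4.35 with JQ1, with overlap of libraries (log2 0.39). The direction given for the internal group thus leaves this transcript out. Its DMSO libraries of Toledo show how far transcript values can part between libraries of a sample. How reads were shared among transcripts is not given in the sources used here.

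MDM4, which binds p53 and lacks the ligase activity of MDM2 on it, differed more between the lines than with JQ1 in SU-DHL-5. Its RPKM (chr1:204516379-204627003) was 2.74 and 2.58 with DMSO and 3.12 and 2.49 with JQ1 in SU-DHL-5. In Toledo it was 9.45 and 10.3 with DMSO and 6.12 and 5.66 with JQ1. The SU-DHL-5 libraries overlapped, and the log2 ratio of 0.07 had an interval from −0.05 to 0.22, while the Toledo ratio was −0.73 (−0.82 to −0.66), or 0.601 times the DMSO level. Between the DMSO samples, Toledo was 3.60-fold higher (log2 1.85, 1.78 to 2.0). The span of MDM4 overlaps LOC100291628, LRRN2 and RNA5SP74. Whether counting used the strand is not given in the sources used here, so reads in shared sequence cannot be told apart.

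The high level of MDM4 in Toledo lay mostly in 1 listed transcript of 10009 bases. It was 7.54 and 7.91 RPKM in the DMSO libraries of Toledo and 0 and 0.253 in those of SU-DHL-5. With JQ1 it was 5.40 and 4.71 RPKM in Toledo and 0.272 and 1.02 in SU-DHL-5. The longest listed transcript with reads, of 10077 bases, overlapped between the lines. It was 0.443 and 2.08 RPKM in the DMSO libraries of Toledo and 2.55 and 1.48 in those of SU-DHL-5. The proteins that these transcripts encode were not compared. A pair of shorter transcripts was higher with JQ1 in both lines, summing to 0.587 and 0.818 RPKM with DMSO and 2.19 and 1.5 with JQ1 in SU-DHL-5, and to 0.281 and 0.466 with DMSO and 1.55 and 0.931 with JQ1 in Toledo. Their share of the transcript sum was 21.7% with DMSO and 43.2% with JQ1 in SU-DHL-5, and it was 3.62% and 17.9% for Toledo. These shorter transcripts rested on 324 reads over the 8 libraries, and the 10009-base transcript on 4497. Of the pair, the 2820-base transcript (284 reads) was above DMSO without overlap in both lines. The 1200-base transcript (40 reads) was 0 and 0.442 RPKM with DMSO and 1.16 and 0 with JQ1 in SU-DHL-5, with overlap.

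**Figure D2:**
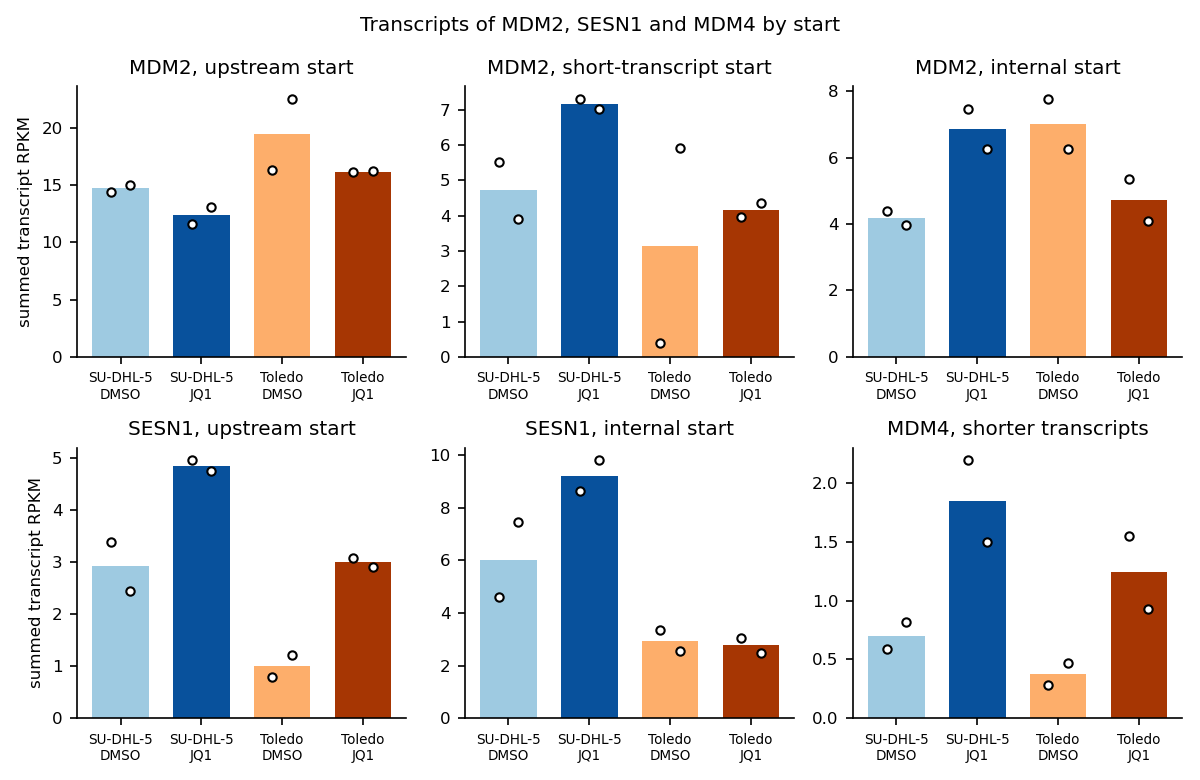
Summed RPKM of transcripts that share a start, for 3 starts of MDM2, 2 of SESN1 and the shorter transcripts of MDM4. Bars are means of the 2 libraries of a sample, open points are libraries, and every vertical axis starts at 0. The internal start of MDM2 was higher with JQ1 in SU-DHL-5 (log2 0.70) and lower in Toledo (log2 −0.56), while the upstream start of SESN1 was higher in both.

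The GADD45 genes encode small stress sensors that bind and activate the MAP3K4 kinase and take part in cell cycle arrest and DNA repair. GADD45A (chr1:67685177-67688338), the member of this family most closely tied to p53, was 17.3 and 22.6 RPKM with DMSO and 33.9 and 32.8 with JQ1 in SU-DHL-5. In Toledo it was 6.11 and 7.54 RPKM with DMSO and 13.1 in both JQ1 libraries. Every JQ1 library stood above every DMSO library of its line, and the JQ1 level of Toledo remained below the DMSO level of SU-DHL-5. The ratios were 1.67-fold in SU-DHL-5 (log2 0.74, 0.62 to 0.86) and 1.91-fold in Toledo (log2 0.93, 0.75 to 1.15). In SU-DHL-5 the second libraries alone gave a log2 ratio of 0.54, under 1.5-fold, and the DMSO libraries differed from each other by 0.39 on that scale, the widest gap between libraries of a sample for any of the 9 genes.

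GADD45B (chr19:2476125-2478259), which is also induced by cytokines and NF-κB, was among the steadiest of the genes between libraries. It was 9.68 and 9.98 RPKM with DMSO and 16.4 and 16.7 with JQ1 in SU-DHL-5, and 8.31 and 8.20 with DMSO and 17.0 and 17.1 with JQ1 in Toledo. Both lines thus reached nearly the same level with JQ1. The log2 ratio was 0.74 (0.57 to 0.92) in SU-DHL-5 and 1.04 (0.87 to 1.23) in Toledo. Among the 9520 genes compared, the 2 whose centred log2 values over the 8 libraries were closest to those of GADD45B were NEU1 and POLG, at distances of 0.170 and 0.209.

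BTG2, an antiproliferative protein that recruits the CCR4-NOT deadenylase to mRNA, had the highest level of the 9 genes in every sample. Its RPKM (chr1:203305536-203309602) was 52.7 and 58.7 with DMSO and 115 and 111 with JQ1 in SU-DHL-5. In Toledo it was 37.3 and 38.6 with DMSO and 86.8 and 80.0 with JQ1. The groups did not overlap, and the level with JQ1 was 2.03-fold that of DMSO in SU-DHL-5 (log2 1.02, 0.97 to 1.07) and 2.20-fold in Toledo (log2 1.13, 1.08 to 1.20). BTG2 rested on 1699 to 5139 reads per library.

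TP53INP1, a p53-induced nuclear protein with roles in autophagy and cell death, had the largest JQ1 ratio of the 9 genes in both lines and the largest difference between the lines. It was 9.21 and 9.0 RPKM with DMSO and 20.4 and 19.1 with JQ1 in SU-DHL-5, and 1.48 and 1.71 with DMSO and 4.84 and 4.46 with JQ1 in Toledo. The ratios were 2.16-fold (log2 1.11, 1.04 to 1.21) and 2.80-fold (log2 1.49, 1.36 to 1.74). Yet the JQ1 libraries of Toledo stayed below the DMSO libraries of SU-DHL-5. With DMSO, Toledo held 0.184 times the level of SU-DHL-5 (log2 −2.44, −2.70 to −2.34).

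SESN1 encodes sestrin 1, which restrains mTORC1 signalling under stress. Its RPKM (chr6:108986437-109094505) was 6.54 and 7.66 with DMSO and 10.7 and 11.4 with JQ1 in SU-DHL-5, and 3.18 and 2.95 with DMSO and 4.96 and 4.40 with JQ1 in Toledo. The JQ1 libraries were above the DMSO libraries in both lines, at 1.55-fold (log2 0.63, 0.51 to 0.76) and 1.51-fold (log2 0.60, 0.42 to 0.80). Both ratios sit at the edge of 1.5-fold, and the second libraries alone gave 0.57 in SU-DHL-5 and 0.56 for Toledo, under it. The Toledo ratio was also under it with a pseudocount of 1 RPKM (0.48) and with transcript values summed (0.53).

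By start, SESN1 behaved alike at both sites in SU-DHL-5 and not in Toledo. The transcript from the upstream start was 3.39 and 2.45 RPKM with DMSO and 4.95 and 4.75 with JQ1 in SU-DHL-5, and 0.797 and 1.21 with DMSO and 3.08 and 2.91 with JQ1 in Toledo. The transcript from the internal start was 4.61 and 7.45 RPKM with DMSO and 8.64 and 9.80 with JQ1 in SU-DHL-5. In Toledo this internal transcript was 3.35 and 2.55 with DMSO and 3.05 and 2.50 with JQ1, so its libraries overlapped, and the higher SESN1 of that line with JQ1 lay in the upstream transcript (log2 1.48 against −0.09). The upstream share of the transcript sum in Toledo was 25.4% with DMSO and 51.9% with JQ1. This difference between starts within a line was not tested, with 1 sample per condition.

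ZMAT3 is an RNA-binding zinc finger protein induced by p53, and FAS is the death receptor of the extrinsic apoptosis pathway. Neither was past 1.5-fold higher with JQ1 in either line. ZMAT3 (chr3:179017223-179072279) was 3.73 and 4.40 RPKM with DMSO and 3.91 and 3.98 with JQ1 in SU-DHL-5, where the libraries overlapped and the log2 ratio was −0.04 (−0.16 to 0.07). For Toledo it was 1.53 and 1.74 with DMSO and 2.14 and 1.77 with JQ1, so the JQ1 libraries lay above without overlap. The log2 ratio of 0.24 (0.09 to 0.43) dropped to 0.02 with the second libraries alone.

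FAS (chr10:88969796-89017059) was 2.47 and 2.29 RPKM with DMSO and 1.45 and 1.66 with JQ1 in SU-DHL-5. In the other line it was 1.11 and 1.13 with DMSO and 0.435 and 0.366 with JQ1. All JQ1 libraries lay below the DMSO libraries of their line. The log2 ratio was −0.59 (−0.81 to −0.43) in SU-DHL-5, at the edge of 1.5-fold, and −1.29 (−1.83 to −1.15) in Toledo, or 0.410 times the DMSO level. At these low levels the Toledo ratio depended on the pseudocount and was −0.60 with 1 RPKM, under 2-fold. FAS had the fewest reads of the 9 genes, between 45 and 297 per library. Its span overlaps ACTA2 and the antisense gene FAS-AS1, which was listed at 0, and whether counting used the strand is not given in the sources used here, so reads of FAS and ACTA2 in shared sequence cannot be told apart.

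**Figure D3:**
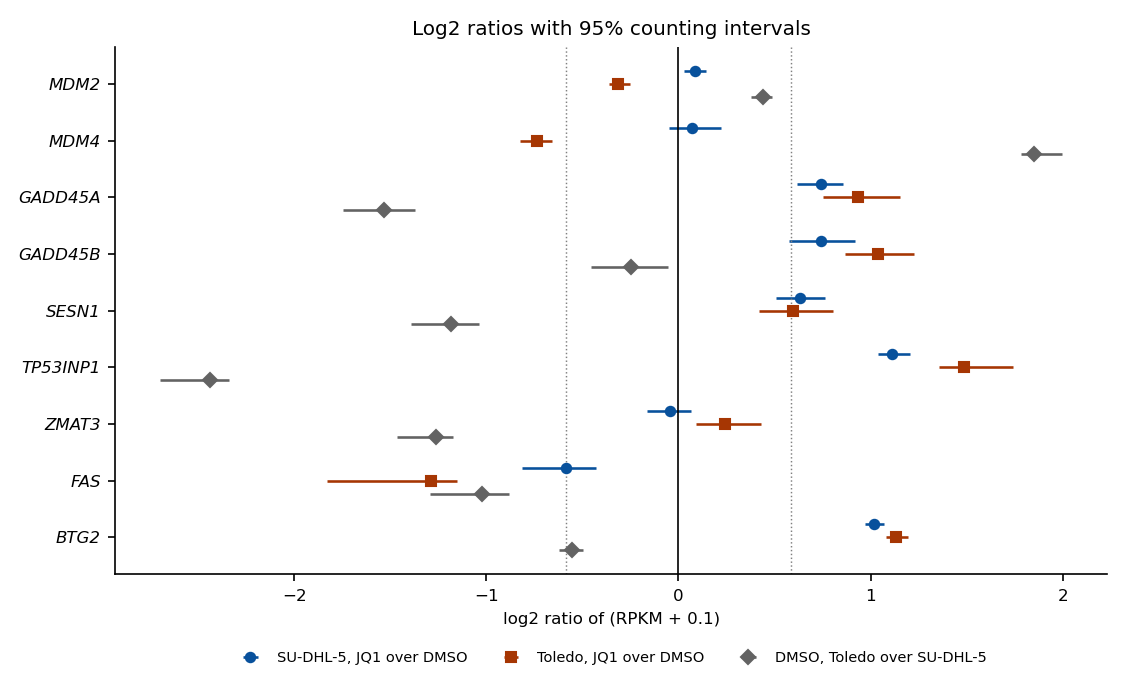
Log2 ratios of (RPKM + 0.1) for the 9 genes, JQ1 over DMSO in SU-DHL-5 (circles) and Toledo (squares) and Toledo over SU-DHL-5 with DMSO (diamonds). Horizontal lines are 95% intervals for counting error only, the solid vertical line is 0 and the dotted lines are 1.5-fold. Most JQ1 ratios lie to the right of 0 and most line ratios to the left, with FAS left of 0 in all 3 and MDM4 furthest right between the lines, at 1.85.

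Counted by library, 6 of the 9 genes were above DMSO without overlap and 1 was below for SU-DHL-5, where 39.9% and 37.5% of all genes tested were. In Toledo the counts were 6 above and 3 below, with 28.8% and 43.1% of all genes. Library separation is thus common in these data and says little for any single gene. Past 1.5-fold, 5 of the 9 genes were higher and 1 lower in SU-DHL-5, where 8.93% and 13.1% of all genes were, and 5 were higher and 2 lower in Toledo, where 7.07% and 17.4% were. Past 2-fold, TP53INP1 and BTG2 were higher in SU-DHL-5 (1.83% of all genes) and none of the 9 was lower (6.25%), while GADD45B, TP53INP1 and BTG2 were higher in Toledo (1.82%) and FAS was lower (7.93%). In SU-DHL-5 the second libraries alone gave 3 past 1.5-fold higher and 0 lower, since GADD45A, SESN1 and FAS came under 1.5-fold.

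The response of the 2 lines was set side by side as the Toledo ratio minus the SU-DHL-5 ratio on the log2 scale, with its range over all pairings of libraries. For MDM4 this difference was −0.81 (−1.11 to −0.49), for FAS −0.70 (−0.96 to −0.45) and for MDM2 −0.40 (−0.62 to −0.16). TP53INP1 (0.38, 0.16 to 0.60) and GADD45B (0.30, 0.25 to 0.34) had larger ratios in Toledo. For GADD45A, SESN1, ZMAT3 and BTG2 the range included 0. These are differences between 4 single samples and were not tested.

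With DMSO alone, the lines themselves differed in all 9 genes by library, with 7 lower and 2 higher in Toledo, where 41.6% and 42.8% of all genes tested were. The median log2 ratio of Toledo over SU-DHL-5 was −1.02 for the 9 genes and 0.00 for all genes. TP53INP1 (−2.44), GADD45A (−1.53, −1.75 to −1.37), ZMAT3 (−1.26, −1.47 to −1.17), SESN1 (−1.19, −1.39 to −1.04) and FAS (−1.02, −1.29 to −0.88) were past 1.5-fold lower, as were 23.7% of all genes, and also past 2-fold lower, as were 13.8%. BTG2 (−0.55) and GADD45B (−0.25) were lower by less. Counted over all transcripts, the 2 that were higher were MDM4 at 1.85 and MDM2 at 0.44. The higher level of MDM4 lay mostly in the 10009-base transcript, whose protein was not examined. MDM4 was past 1.5-fold and 2-fold higher, as were 26.7% and 16.1% of all genes. A sample and its line cannot be told apart here.

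The order of the 9 levels in RPKM also differed by line. In the SU-DHL-5 DMSO sample BTG2 was followed by GADD45A (19.9) and MDM2 (18.8), whose libraries overlapped, then by GADD45B (9.83), TP53INP1 (9.10), SESN1 (7.10), ZMAT3 (4.06), MDM4 (2.66) and FAS (2.38). In the Toledo DMSO sample MDM2 (25.5) and MDM4 (9.86) came next after BTG2 (37.9), and ZMAT3 (1.64) and TP53INP1 (1.60) could not be ordered beyond the spread of their libraries. FAS was last in all 4 samples.

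The relatives of p53 differed between the lines more than any member. TP63, a relative of p53 that binds similar DNA, was 14.6 and 19.4 RPKM with DMSO and 9.60 and 8.78 with JQ1 in Toledo, and no more than 0.019 in any SU-DHL-5 library. TP73, the other relative, was 5.81 and 5.13 RPKM with DMSO and 3.37 and 3.30 with JQ1 in SU-DHL-5, and at most 0.223 in Toledo. Both were lower with JQ1 in the line where they were above 1 RPKM, with log2 ratios of −0.70 for TP73 and −0.88 for TP63. Of the 14 relatives and regulators of p53, none was past 1.5-fold higher with JQ1 in either line, beside 8.93% and 7.07% of all genes. TP73 alone was lower in SU-DHL-5, and TP63, TP73, CHEK1, HIPK2 and DAXX were lower in Toledo, beside 13.1% and 17.4% of all genes. HIPK2, a kinase that phosphorylates p53, was listed at 0 in every SU-DHL-5 library.

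Other p53 targets were found in both directions. Of 23 tested of 29 listed, 2 were past 1.5-fold higher and 4 lower in SU-DHL-5, and 3 were higher and 7 lower in Toledo, with median log2 ratios of 0.00 and −0.31. The SU-DHL-5 counts are near the shares over all genes, 8.93% higher and 13.1% lower, and the Toledo shares were 7.07% and 17.4%. CDKN1A, which encodes the p21 inhibitor of cyclin-dependent kinases and is the classical target of p53, was 22.5 and 20.7 RPKM with DMSO and 11.1 and 11.5 with JQ1 in SU-DHL-5, and 21.0 and 19.9 with DMSO and 13.4 and 13.1 with JQ1 in Toledo. Its log2 ratios of −0.93 and −0.62 were opposite in sign to those of BTG2 and GADD45A. TRIM22 (−1.92 and −2.51), DRAM1 (−0.87 and −1.23) and AEN (−0.66 and −1.03) were the other targets lower by 1.5-fold in both lines. XPC, a DNA damage recognition factor that was chosen after its values were seen, was the only one of the list higher by 1.5-fold in both, at 0.64 and 0.69. TP53I3 differed in direction between the lines, at 2.35 and 1.77 RPKM with DMSO and 4.53 and 5.45 with JQ1 in SU-DHL-5, but 0.222 and 0.333 with DMSO and 0.121 and 0.0914 with JQ1 in Toledo.

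Of the relatives of the members in the same gene families, 8 of 11 listed were tested. Past 1.5-fold, 3 were higher in SU-DHL-5 (8.93% of all genes) and 2 in Toledo (7.07%), and none was lower in either line. Without overlap of libraries, 7 were above DMSO in SU-DHL-5 (39.9% of all genes) and 6 in Toledo (28.8%). SESN3, the relative of SESN1, was 0.305 and 0.407 RPKM with DMSO and 1.83 and 1.55 with JQ1 in SU-DHL-5, and 1.70 and 2.46 with DMSO and 6.87 and 5.99 with JQ1 in Toledo. TOB1, an antiproliferative relative of BTG2, had log2 ratios of 0.66 and 0.81, and BTG1 of 0.57 and 0.17. SESN3 and TOB1 were the 2 that were past 1.5-fold higher in both lines.

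Partners of the members were mixed. For SU-DHL-5, 8.93% of all genes tested were past 1.5-fold higher with JQ1 and 13.1% past 1.5-fold lower. The shares for Toledo were 7.07% and 17.4%. Whether the partner lists below differed from these shares was not tested. None of 9 genes of the deadenylase that BTG2 recruits, with its co-factors, was past 1.5-fold in either line. Among 10 kinases of the pathway that GADD45 proteins activate, 1 was past 1.5-fold higher and 1 lower in SU-DHL-5. In Toledo 1 of these kinases was higher and 2 were lower. MAPK8, which encodes JNK1, was higher in both lines (log2 0.65 and 0.66) and MAPK11, a p38 isoform, was lower in both (−0.65 and −0.90). MAP3K4, the direct partner of GADD45 proteins, was 1.67 and 1.83 RPKM with DMSO and 1.97 in both JQ1 libraries in SU-DHL-5, and 5.38 and 5.71 with DMSO and 3.54 and 3.41 with JQ1 in Toledo. In the FAS pathway, 10 of 12 genes were tested. Past 1.5-fold, none was higher and 1 lower in SU-DHL-5, and 1 was higher and 2 lower in Toledo. CFLAR, which encodes the caspase-8 inhibitor c-FLIP, was lower in both lines together with FAS (−1.27 and −1.48). Its mean over all libraries was under 2 RPKM, so that it is a gene of low level, like FAS. In Toledo RIPK1 was higher (0.625) and DAXX lower (−0.60). Among 14 genes around sestrin and mTORC1, DDIT4 and PRKAA1 (0.61) were past 1.5-fold higher and 1 was lower in SU-DHL-5. In Toledo none of these was higher and 1 was lower. DDIT4, a stress-induced inhibitor of mTORC1, was 115 and 178 RPKM with DMSO and 270 and 261 with JQ1 in SU-DHL-5. In Toledo it was 26.8 and 32.5 with DMSO and 21.8 and 20.4 with JQ1. DEPDC5, a subunit of the GATOR1 complex, was lower in both (−0.76 and −0.74).

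Immediate early genes report stress and growth signals within minutes. Of 13 tested of 14 listed, 1 was past 1.5-fold higher and 3 lower in SU-DHL-5, and 5 were higher and 2 lower in Toledo, beside 8.93% and 13.1% of all genes in the first line and 7.07% and 17.4% in the second. FOS, JUND, IER3, PPP1R15A, KLF6 and ZFP36 were above DMSO without overlap of libraries in both lines, as were 22.0% of all genes. FOS had the largest ratio of the list in Toledo, at 0.603 and 0.514 RPKM with DMSO and 2.02 and 1.87 with JQ1 (log2 1.64), and was 1.74 and 1.69 against 2.39 and 1.84 in SU-DHL-5 (log2 0.28). JUND was higher in both (log2 1.20 and 1.44) and NR4A1 lower in both (−1.16 and −0.83). EGR1 was 22.3 and 21.3 RPKM with DMSO and 15.6 and 13.0 with JQ1 in SU-DHL-5, and 0.379 and 0.353 with DMSO and 1.14 and 1.07 with JQ1 in Toledo. JUN was also lower with JQ1 in SU-DHL-5 (−0.75) and higher in Toledo (0.87).

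**Figure D4:**
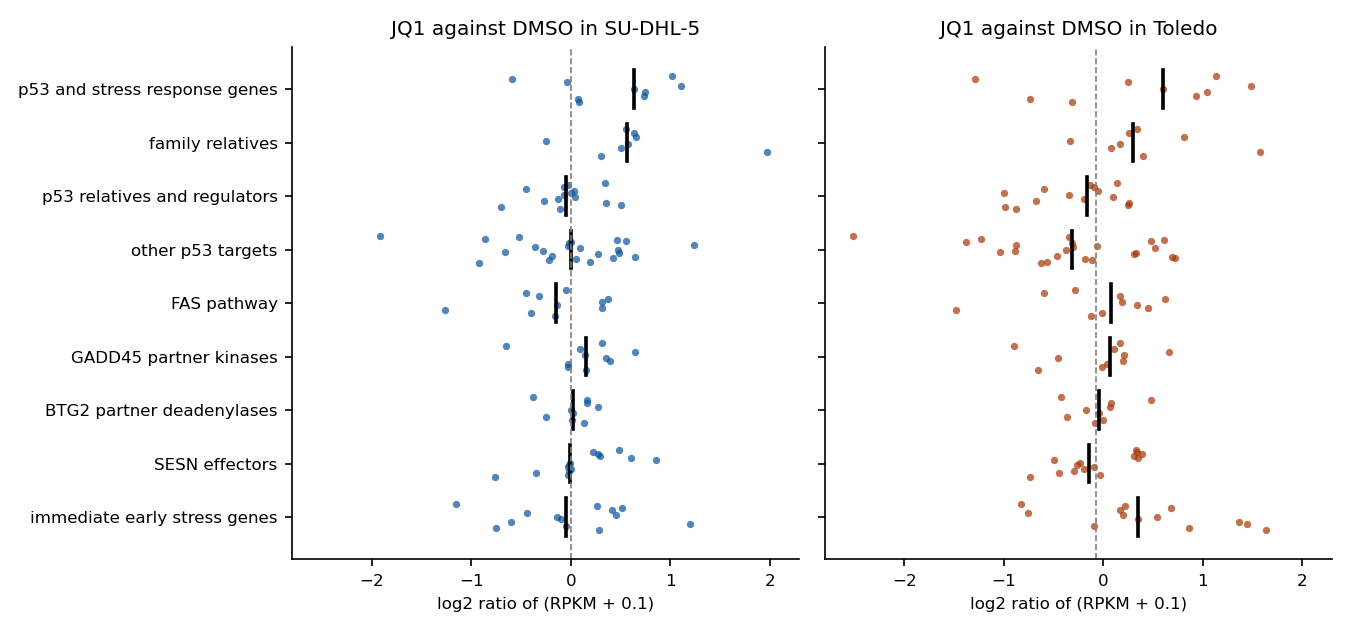
Log2 ratios of (RPKM + 0.1), JQ1 over DMSO, for the 9 genes and the listed genes of their pathway that passed the filter, with 1 point per gene, a black bar at the median of each list and a dashed line at the median of all genes tested. The left panel is SU-DHL-5 and the right panel Toledo. The medians of the 9 genes, 0.63 and 0.60, lie to the right of that dashed line and those of the relatives and regulators of p53 to the left, at −0.05 and −0.16. Genes and lists were chosen with earlier results of these data known.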

How the data were processed

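Paired-end RNA-seq of 4 samples used libraries from a stranded mRNA kit. The deposited values are RPKM for genes and for transcripts, which the authors computed from trimmed reads. Their processing notes name CASAVA 2.0 and the build GRCh38 (hg38), and the aligner, the counting, its use of strand and the annotation are not given in the sources used here. The labels give 6 h of treatment, while a figure legend of the study gives a longer time.

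The 2 library columns of a sample were averaged and counted as 1 sample, since what separates them is not given. Mapped reads per library were recovered as the total that made the RPKM of single-exon genes whole reads (97.2% to 98.4% of them within 0.02), and, with a length searched per gene, reads within 0.001 of a whole number (or 1e-06 of the count, if larger) followed for 14942 of 14944 genes with a value. The recovery, the ratios and the calls were tested on simulated data. Ratios used a pseudocount of 0.1 RPKM, which understates the change of low genes. Intervals of 95% are exact binomial intervals of recovered reads and cover counting error only. Genes tested had a mean of at least 0.5 RPKM. No test was made within a line, where n = 1. JQ1 against DMSO over both lines was tested with limma 3.58.1 (R 4.3.3) on log2 values of the 4 samples, with the line as a block and a trended prior.

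The 9 genes and the lists were chosen with earlier results of these data known. Listed genes were named by their absolute log2 ratio, at most 5 per list and comparison and those past 2-fold first, along with the 2 genes of most like pattern for each member, of which those of GADD45B are printed in the report and those of 7 others in the closing section. Some listed genes are not reported here and were left out of the lists. Starts within 25 bases were joined. Positions count from 1. The exon and intron positions came from GENCODE. Alternatives were other pseudocounts, scaling, single libraries, summed transcripts, centring on gene length and other filters. A comparison of protein sequences was not made. The tools were scipy 1.17.1, pandas 2.3.3, numpy 2.4.6 and matplotlib 3.10.9 under Python 3.11.15.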

Additional observations from a re-analysis of the deposited data

Results flagged for a closer look

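For 6 of the named genes the JQ1 libraries lay wholly on one side of the DMSO libraries in SU-DHL-5 and wholly on the other side in Toledo. The difference between the lines was not tested for any of them, since each condition was 1 sample. Given as the Toledo log2 ratio minus the SU-DHL-5 log2 ratio, it was −0.40 for MDM2 (−0.31 and 0.09), and the SU-DHL-5 ratio of MDM2 was −0.05 when centred on genes of like length. It was −2.11 for TP53I3 (−0.87 and 1.24), −0.82 for MAP3K4 (−0.66 and 0.16) and −1.35 for DDIT4 (−0.49 and 0.86). For the immediate early genes JUN and EGR1 it had the other sign, at 1.62 for JUN (0.87 and −0.75) and 1.97 for EGR1 (1.37 and −0.60). TP53I3 was under 0.5 RPKM in every Toledo library.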

How the results depend on the processing

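Within a line there was 1 sample for each condition and no replicate numbers to pair. In the fit over both lines with the line as a block, 5 of the 9 genes were higher under each alternative but library 2 alone, where 4 were. FAS, the 1 called lower, gave a count of 0 with a pseudocount of 1 RPKM, with library 2 alone and with a minimum mean of 2 RPKM, which leaves FAS out. Of 189 log2 ratios of the 9 genes under the alternatives, 146 stayed within the counting interval and 43 did not, and no ratio past 1.5-fold changed its sign. The ratios of MDM2, MDM4 and ZMAT3 in SU-DHL-5, all under 1.5-fold, did change sign, over ranges of −0.05 to 0.15, −0.13 to 0.39 and −0.24 to 0.07. In SU-DHL-5 the count past 1.5-fold higher was 3 with library 2 alone, and the count lower was 0 with a pseudocount of 1 RPKM, with library 2 alone and with transcript values summed, where 2 genes had libraries below without overlap. In Toledo the median of the 9 genes was 0.48 with a pseudocount of 1 RPKM, 0.66 after division by the median ratio, 0.53 with summed transcripts and 0.69 when centred on gene length, the count past 1.5-fold higher was 4 instead of 5 with a pseudocount of 1 RPKM, library 2 alone and summed transcripts, and the count lower was 1 with summed transcripts. Between the DMSO samples the median was −0.67 and −1.08 with pseudocounts of 1 and 0.01 RPKM, −0.96 with library 2 alone and −1.18 when centred on gene length. There the count past 1.5-fold higher was 2 with library 2 alone, and the count not overlapping above was 1 with summed transcripts. Causes were not tested. Depth limits FAS most, at 45 reads in its lowest library, and transcript values more than gene values.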

Other observations

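The genes whose centred log2 values over the 8 libraries were closest to each of 7 other members, out of 9520 compared, were as follows, with the Euclidean distance of each. For MDM2 they were BAZ1B (0.139) and IKBKB (0.146), and for ZMAT3 LRCH1 (0.208) and RAB30 (0.243). For SESN1 they were RPGRIP1L (0.283) and PCSK7 (0.304) and for FAS OXCT1 (0.297) and AGPAT3 (0.319). MDM4 was closest to C11orf95 (0.339) and DIAPH2 (0.388), and GADD45A to ARHGAP12 (0.385) and MICU2 (0.393). TP53INP1 had no gene as close, with CNFN at 0.694 and CYB5D2 at 0.715.

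NINJ1, a listed p53 target, was listed at 0 in every SU-DHL-5 library and was 25.3 and 22.7 RPKM with DMSO and 8.11 and 10.2 with JQ1 in Toledo. RRM2B, a p53-induced ribonucleotide reductase subunit, was 30.5 and 36.3 RPKM with DMSO and 44.9 and 44.8 with JQ1 in SU-DHL-5, and 7.24 and 9.20 with DMSO and 14.1 and 13.1 with JQ1 in Toledo.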
